A study of Mus musculus with 12 samples.

Results

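Ventral CA1 tissue that received strong tetanization together with stimulation of the basolateral amygdala at the rate named as 200 Hz (STET_S200) was compared with ventral CA1 tissue that received the same tetanization alone (STET). The comparison rests on 6 of the 12 libraries of the series, 3 in each group, and takes in all 19492 genes that passed the count filter. All slices came from wild-type male C57BL/6J mice aged 5 to 7 weeks. STET consisted of 3 trains of 100 pulses at 100 Hz. For STET_S200 the sample label names a rate of 200 Hz for the amygdala but writes 100 pulses at 100 Hz in brackets after it, so the delivered rate is stated in conflicting ways. Slices of 400 µm, which hold hippocampus, amygdala and adjoining cortex, had rested for at least 3 h and were frozen 30 min after stimulation. A piece of 1 mm2 around the electrodes was then cut from ventral CA1, and 6 slices from individual mice were pooled for each library. Each mouse gave 4 slices, 1 to each experimental group, so the groups share mice. Where other libraries are mentioned, Control slices received basal stimulation only, and STET_S100 slices received the tetanization with amygdala stimulation at 100 Hz.

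Strong tetanization of Schaffer collaterals is known to induce late long-term potentiation, a lasting strengthening of synapses that needs new transcription and translation. Synaptic activity is first followed by a burst of immediate early genes such as Arc, Fos and Npas4, and later by genes for secreted and synaptic proteins such as Bdnf. The basolateral amygdala, which carries emotional arousal, sends glutamatergic axons to ventral CA1, and its activation is known to change how long hippocampal potentiation lasts. The comparison addresses what the amygdala input adds to the transcript levels found after tetanization.

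Total counts were 50.3, 43.7 and 46.0 M in STET and 42.7, 44.8 and 36.8 M in STET_S200. Slc17a7, a vesicular glutamate transporter of excitatory neurons, stood at 1195 to 1233 CPM in STET and 1282 to 1353 CPM in STET_S200. Its level shows RNA of such neurons but does not tell ventral CA1 from adjoining cortex. CPM is a library's count scaled to a fixed total after TMM adjustment. Between replicates the counts differed by more than sampling noise (chi-square over its degrees of freedom 4.79 to 12.3), so no library repeated another. Transcripts of neighbouring tissue differed between the groups. Ttr, a carrier of thyroid hormone and the leading choroid plexus transcript, was at 254, 2242 and 433 CPM in STET and at 5.13, 1.73 and 40.6 CPM in STET_S200. Every STET library was thus above every STET_S200 library. The same held for 12 of the 15 tested choroid plexus and ependymal markers, against 5.76% of all tested genes. Fabp4, which carries fatty acids in adipose and capillary cells, was at 0.0595, 0.275 and 8.46 CPM in STET and at 0.0713, 7.08 and 7.08 CPM in STET_S200. STET 3, STET_S200 2 and STET_S200 3 were therefore above 1 CPM, which leaves STET_S200 1 against STET 1 and STET 2 below that level. Alb, the serum albumin of the liver, was at 7.77 and 7.49 CPM in STET_S200 2 and 3 and reached at most 0.0867 CPM elsewhere in the comparison.

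**Figure D1:**
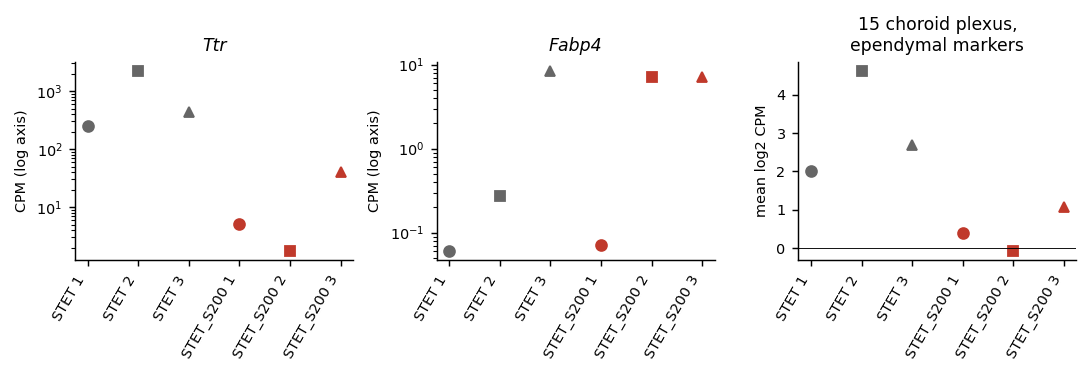
Levels of Ttr and Fabp4 in CPM on log axes, and the mean log2 CPM of 15 choroid plexus and ependymal markers, in each of the 3 STET (grey) and 3 STET_S200 (red) libraries. Ttr and the marker mean do not overlap between the groups, while Fabp4 is high in STET 3, STET_S200 2 and STET_S200 3.

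No gene passed the threshold between STET_S200 and STET in edgeR's quasi-likelihood test. Its smallest Benjamini-Hochberg adjusted p was 0.857, against a threshold of 0.05, so the share of all tested genes called was 0% in either direction. At an unadjusted p under 0.05 there were 416 higher genes (2.13% of those tested) and 472 lower genes (2.42%), 888 in all. All 3 STET_S200 libraries lay above all 3 STET libraries in 1212 genes (6.22%) and below them in 1122 genes (5.76%). Over all tested genes the log2 fold change was positive in 51% and negative in 49%, with a median of 0.0023. For genes with a mean log2 CPM above 2 the median standard error (SE) of a log2 fold change was 0.064. Other tools and filters gave a few calls. DESeq2 called 16 genes, 1 higher and 15 lower, and edgeR without a filter on low counts called 34, 3 higher and 31 lower. Among the genes called by both were Neurod2, Uchl1, Rps27, S100a1, Rps29, Rpl38 and Rps21. The values below come from the filtered edgeR fit, in which no gene passed the threshold.

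Neurod2 (ENSMUSG00000038255), a basic helix-loop-helix transcription factor of cortical and hippocampal excitatory neurons, had the smallest p of all genes. Its level was 131, 122 and 133 CPM in STET and 147, 152 and 146 CPM in STET_S200. The lowest STET_S200 library was above the highest STET library, and the 6 values spread little within each group. The log2 fold change was 0.21 ± 0.04 (SE, n = 3 each), or 1.15-fold, with an unadjusted p of 5.63e-05 and an edgeR adjusted p of 0.857. DESeq2 gave it an adjusted p of 0.0116. Control libraries averaged 127 ± 1.03 CPM (SD, n = 3) and STET_S100 libraries 142 ± 2.13 CPM, so STET_S200 stood at the top of the 4 groups and STET beside Control.

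Several receptor and adhesion genes followed Neurod2 among the higher genes. Efna3, an ephrin ligand of Eph receptor tyrosine kinases, was at 80.0, 73.5 and 80.8 CPM in STET and 84.6, 90.8 and 87.5 CPM in STET_S200, a log2 fold change of 0.17 ± 0.04. Sstr3, the somatostatin receptor of neuronal primary cilia, was at 31.7, 31.8 and 30.6 CPM against 38.4, 37.7 and 34.3 CPM (0.23 ± 0.06). Neither gene overlapped between the groups. Lgr5, a receptor for R-spondins in Wnt signalling, was low in every library, with 1.95, 2.13 and 1.47 CPM in STET and 2.57, 3.06 and 3.03 CPM in STET_S200. Its log2 fold change of 0.64 ± 0.17 was the largest of the 10 higher genes with the smallest p. The clustered protocadherin gene Pcdhac2 (0.19 ± 0.05), the retinoid-inducible regulator Cxxc5 (0.18 ± 0.05), the actin-regulatory gene Abi3 (0.63 ± 0.18) and the ubiquitin-conjugating enzyme gene Ube2ql1 (0.13 ± 0.04) were also without overlap. All of these 10 genes were higher in 3 of 3 STET_S200 libraries, and edgeR's adjusted p was 0.938 for each but Neurod2. The genes were picked by p from these same libraries, so their separation is not independent support.

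Among the 10 higher genes with the smallest p, Cdh11, Zfp449 and Abi3 were also higher in STET_S200 than in STET_S100 at an unadjusted p under 0.05, and none of them passed edgeR's adjustment there. Both comparisons use the same STET_S200 libraries, from which these genes were picked. Cdh11 (ENSMUSG00000031673), a cadherin of synaptic and mesenchymal adhesion, was at 77.6, 76.2 and 79.4 CPM in STET and 83.9, 86.2 and 87.8 CPM in STET_S200. Control averaged 77.9 ± 2.9 CPM and STET_S100 77.7 ± 1.61 CPM, so the 3 other groups had nearly the same level and STET_S200 alone was above it. Its log2 fold change was 0.14 ± 0.04 against STET and 0.15 ± 0.04 against STET_S100 (unadjusted p = 0.0019, edgeR adjusted p = 0.956). Zfp449, a zinc finger gene, averaged 4.39 ± 0.15 CPM in STET_S200, against 3.24 ± 0.26 CPM in STET, 3.35 ± 0.22 CPM in STET_S100 and 3.68 ± 0.16 CPM in Control. Abi3 had a log2 difference of 0.41 ± 0.17 from STET_S100 (unadjusted p = 0.029, edgeR adjusted p = 0.957). In the 7 others the difference from STET_S100 missed that level, and the log2 differences ran from 0.03 ± 0.05 in Cxxc5 to 0.08 ± 0.05 in Pcdhac2.

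The lower genes with the smallest p were mostly short transcripts of the translation machinery. S100a1 (ENSMUSG00000044080), a calcium-binding protein, was at 42.8, 47.6 and 45.9 CPM in STET and 38.4, 36.8 and 35.2 CPM in STET_S200, a log2 fold change of −0.30 ± 0.06. Uchl1 (ENSMUSG00000029223), a deubiquitinating enzyme that is very abundant in neurons, was at 615, 658 and 690 CPM against 526, 482 and 532 CPM, a log2 fold change of −0.35 ± 0.08 or a ratio of 0.785. Its antisense neighbour Uchl1os moved alongside (−0.35 ± 0.10). Whether the counting used strand is not stated, so reads of the pair may not be fully told apart. Gm43279, a predicted gene, was at 9.47, 8.21 and 9.24 CPM against 5.18, 6.68 and 5.68 CPM. In each of these genes the groups did not overlap, and the edgeR adjusted p ran from 0.857 to 0.938.

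**Figure D2:**
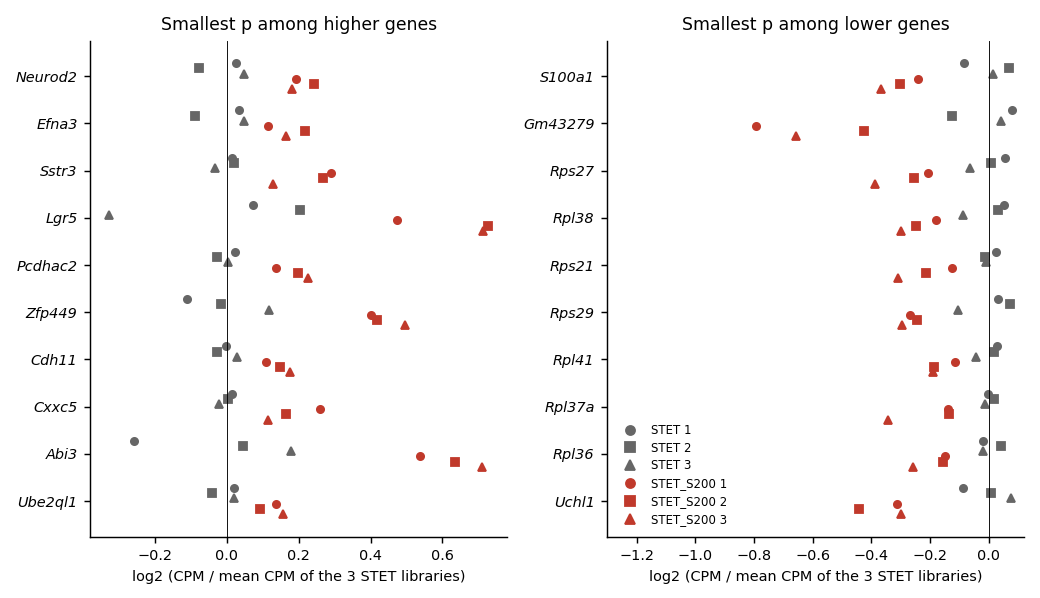
The 20 genes with the smallest p, 10 in each direction, each library as the log2 ratio of its CPM to the mean of the 3 STET libraries (grey STET, red STET_S200, symbol shape by replicate number). In all 20 genes the 3 red points lie on 1 side of the 3 grey points, and 7 of the lower genes encode ribosomal proteins. The genes were picked by p from these same libraries, so the separation is not independent support.

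Ribosomal protein genes made up 7 of the 10 lower genes. They encode the protein part of the cytosolic ribosome, and their mRNAs typically begin with a run of pyrimidines, the terminal oligopyrimidine (TOP) tract, through which their translation follows growth signals. The gene starts of 5 of the 7 are shown because they let a reader see how far this shared feature reaches among the genes that were lower together. Each sequence runs from 40 bases before to 20 bases after the start annotated by RefSeq (build GRCm38.p6), 5′ to 3′ on the gene's strand, and capitals mark a run of at least 8 C or T letters.
Rps27, chr3:90213629-90213688, minus strand: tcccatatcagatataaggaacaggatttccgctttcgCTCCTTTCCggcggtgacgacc
Rpl38, chr11:114668540-114668599, plus strand: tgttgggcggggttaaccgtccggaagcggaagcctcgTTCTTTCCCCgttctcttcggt
Rps21, chr2:180257339-180257398, plus strand: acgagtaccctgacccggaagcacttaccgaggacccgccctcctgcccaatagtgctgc
Rpl41, chr10:128549149-128549208, minus strand: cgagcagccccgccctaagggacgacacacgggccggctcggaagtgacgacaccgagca
Rpl37a, chr1:72711220-72711279, plus strand: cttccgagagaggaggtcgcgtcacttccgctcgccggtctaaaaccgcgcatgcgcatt
A run of 9 letters begins 2 bases before the annotated start of Rps27, and a run of 10 letters at the same place in Rpl38. Rps21 has a run of 7, one of its 2 annotated starts being shown, and Rpl41 and Rpl37a have none of that length at their annotated starts. The search covered 10 bases before to 20 bases after the start on the gene's own strand. A run of at least 8 was found in 30 of 58 tested ribosomal protein genes with an annotated start (51.7%), in 8 of 63 tested oxidative phosphorylation genes (12.7%) and in 20.1% of all 13043 tested genes matched. The search describes letters in a window and was not related to the size of any difference.

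Rps27 (ENSMUSG00000090733), a protein of the small subunit, was at 158, 153 and 145 CPM in STET and 131, 127 and 116 CPM in STET_S200, a log2 fold change of −0.28 ± 0.06. Rpl38, a large-subunit protein known to affect the translation of Hox mRNAs, was at 138, 136 and 126 CPM against 118, 112 and 109 CPM (−0.24 ± 0.05). Rps29 was at 232, 239 and 211 CPM against 189, 192 and 185 CPM (−0.27 ± 0.06). In each gene every STET_S200 library was below every STET library, and STET had the highest mean of the 4 groups. Rps27 averaged 133 ± 2.80 CPM in Control and 132 ± 11.7 CPM in STET_S100, against 152 ± 6.35 CPM in STET and 125 ± 8.01 CPM in STET_S200. Rps21 (−0.22 ± 0.05), Rpl41 (−0.16 ± 0.04), Rpl37a (−0.20 ± 0.05) and Rpl36 (−0.19 ± 0.05) did not overlap between the groups either. Ribosomal protein genes have many processed pseudogenes, and the counting may have split reads between near-identical copies.

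Of the 79 tested ribosomal protein genes, 75 had a negative log2 fold change, against 49% of all tested genes. The median was −0.082, a ratio of 0.945, and the range ran from −0.281 in Rps27 to 0.037 in Rpl22. Without overlap between the groups were 25 lower genes (31.6%, against 5.76% of all tested genes) and 0 higher ones. At an unadjusted p under 0.05 there were 28 lower genes (35.4%, against 2.42%). None passed edgeR's adjustment over all genes in the reported fit, whereas DESeq2 called Rps27, Rps29, Rpl38, Rpl41 and Rps21, and edgeR without a filter called Rps27, Rps29, Rpl38, Rps21, Rpl37a, Rps28, Rpl37 and Rpl36. The 28 lower genes at an unadjusted p under 0.05 became 50 without STET_S200 1, 18 without STET_S200 2 and 16 without STET_S200 3. The genes with positive values were Rpl22 (0.04 ± 0.04), Rpl15 (0.02 ± 0.04), Rpl3 and Rpl5. Summed over the list, ribosomal protein transcripts took 12770, 12796 and 12590 CPM in STET and 12660, 11881 and 11563 CPM in STET_S200. STET_S200 1 thus lay within the range of STET, and the 2 other STET_S200 libraries lay below it. Those 2 are the STET_S200 libraries with Fabp4 above 1 CPM. Among libraries at or below that level, 41 of the 79 genes were lower in STET_S200 1 than in the mean of STET 1 and 2 on the log2 scale, with a median difference of −0.002. Among libraries above it, 72 of the 79 were lower in STET_S200 2 and 3 than in STET 3, with a median of −0.101. Against STET_S100 the median log2 fold change of the list was −0.003.

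The nuclear-encoded subunits of oxidative phosphorylation, the mitochondrial chain that makes ATP, had values of both signs. Of 75 tested genes 52 had negative values (median log2 fold change −0.044), and 25 were lower without overlap (33.3%, against 5.76% of all genes). Atp5e, the small epsilon subunit of ATP synthase, was at 69.6, 75.7 and 70.4 CPM in STET and 63.1, 61.0 and 61.7 CPM in STET_S200, a log2 fold change of −0.21 ± 0.06. Atp5k, another small ATP synthase subunit, was at 71.0, 71.3 and 63.5 CPM against 53.5, 61.3 and 60.1 CPM (−0.24 ± 0.08). The complex I subunits Ndufa3 (−0.17 ± 0.05) and Ndufs5 (−0.15 ± 0.05) and the cytochrome oxidase subunit Cox8a (−0.12 ± 0.04), named here after their values were seen, were also below STET in all 3 libraries. Above STET without overlap were 4 members, a smaller share of the 75 than the 6.22% of all tested genes. These were Atp5b and Atp5a1, large subunits of ATP synthase, the complex III core protein Uqcrc2 and the iron-sulfur subunit Sdhb of complex II. Their log2 fold changes were small, from 0.03 to 0.04. Ndufa9 (0.06 ± 0.04) and Ndufs8 (0.05 ± 0.05) had the highest values of the list. The 13 protein genes encoded in the mitochondrial genome had a median of −0.044 and no member without overlap.

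Transcript length moved with these 2 lists. Among 12019 genes with a mean log2 CPM above 2 and an annotated length, the median log2 fold change was −0.075 for the 184 genes under 700 nt, −0.041 for 384 genes of 700 to 1000 nt, −0.003 for 2129 genes of 1000 to 2000 nt, 0.012 for 6484 genes of 2000 to 5000 nt and 0.015 for 2838 genes over 5000 nt. Under 700 nt, 32.6% of the genes were below every STET library in all 3 STET_S200 libraries and 1.63% above, against 5.76% and 6.22% of all tested genes. Over 5000 nt, 3.74% were below and 8.63% above. Short genes outside the 2 lists showed it too, with a median of −0.068 and 97 of 135 genes negative. The ribosomal protein genes were lower than these within each length class, at −0.146 under 700 nt (22 of 22 negative), −0.081 at 700 to 1000 nt (26 of 26) and −0.055 at 1000 to 2000 nt (21 of 23). The oxidative phosphorylation genes were close to the other short genes under 700 nt, at −0.072 (25 of 27), and stood at 0.023 at 1000 to 2000 nt (9 of 23 negative). With the trend over length removed from each library, 66 ribosomal protein genes kept a negative sign and 17 were lower at an unadjusted p under 0.05, while 38 of the 75 oxidative phosphorylation genes were negative and 2 were lower at that level, against 28 and 15 of the 2 lists in the reported fit. The 15 became 2 as well with a choroid plexus score as a covariate, 7 without STET 2 and 8 without STET_S200 1 or STET_S200 2. Relative to the mean of the 12 libraries, genes under 700 nt had medians of 0.049, 0.076 and 0.049 in STET and −0.006, −0.022 and −0.018 in STET_S200. Their medians were −0.038, −0.033 and 0.025 in Control and 0.004, −0.045 and −0.037 in STET_S100. STET was thus the group that stood apart, and STET_S200 lay within the range of Control and of STET_S100.

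**Figure D3:**
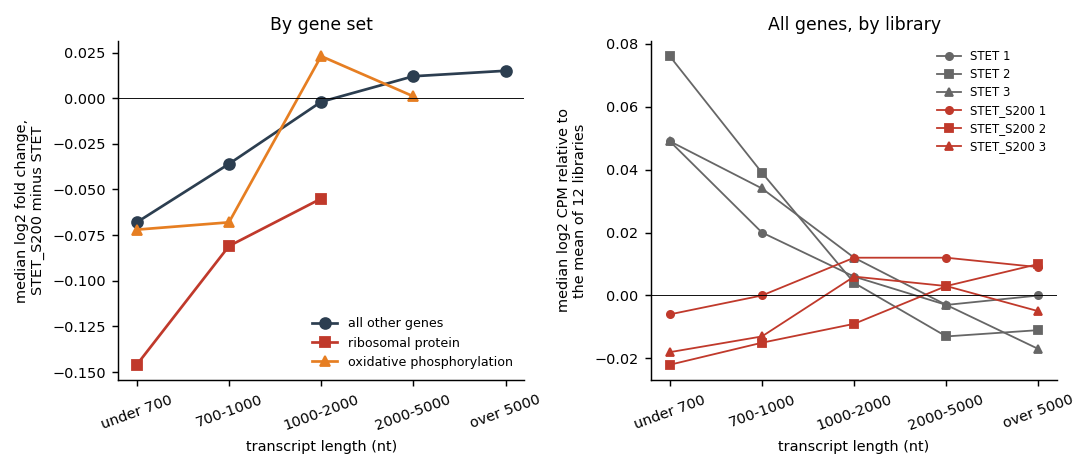
Left, the median log2 fold change of STET_S200 minus STET by transcript length in nt for ribosomal protein genes, oxidative phosphorylation genes and all other genes with a mean log2 CPM above 2 (classes of at least 5 genes). Right, the median log2 CPM of all such genes in each library relative to the mean of the 12 libraries, in which the 3 STET libraries stand at 0.049 to 0.076 under 700 nt and the 3 STET_S200 libraries at −0.022 to −0.006.

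Immediate early genes, the first transcriptional answer of neurons to activity, were not separated between the groups. Arc (ENSMUSG00000022602), which regulates the endocytosis of AMPA receptors, was at 297, 285 and 191 CPM in STET and 277, 193 and 215 CPM in STET_S200. Npas4 (ENSMUSG00000045903), an activity-dependent transcription factor of neurons, was at 251, 223 and 155 CPM against 195, 113 and 178 CPM. In both genes the groups overlapped, and STET 3 and STET_S200 2 were the low libraries of their groups. Their log2 fold changes were −0.17 ± 0.32 and −0.38 ± 0.39. These errors leave room for a difference of either sign. Both groups stood above Control, at 96.6 ± 17.6 CPM for Arc and 63.8 ± 10.5 CPM for Npas4.

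Fosb (ENSMUSG00000003545), an AP-1 subunit, was the only rapid immediate early gene of the list without overlap, a smaller share than the 5.76% of all tested genes lower without overlap. Fosb was at 296, 302 and 296 CPM in STET and 276, 237 and 272 CPM in STET_S200 (−0.19 ± 0.14, edgeR unadjusted p = 0.21). Its Control level of 257 ± 16.3 CPM was near that of STET_S200, 262 ± 21.8 CPM. Fos was at 285, 295 and 208 CPM against 281, 217 and 243 CPM, and Egr1 at 461, 455 and 353 CPM against 421, 336 and 414 CPM. Both overlapped. The log2 fold changes of the other transcription factor genes were −0.12 ± 0.18 for Junb, −0.06 ± 0.25 for Egr2, −0.02 ± 0.14 for Egr3, −0.13 ± 0.18 for Egr4, −0.24 ± 0.25 for Nr4a1 and −0.06 ± 0.07 for Nr4a2. The signalling and growth-arrest genes Dusp1 (−0.16 ± 0.14), Btg2 (−0.19 ± 0.29) and Gadd45g (−0.16 ± 0.14) had values of similar size.

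Across the list of 33 tested rapid immediate early genes, 29 had negative log2 fold changes, with a median of −0.116, or a ratio of 0.923. The lowest after Npas4 was the stress-responsive factor Atf3 (−0.30 ± 0.18), and the highest were Klf10 (0.07 ± 0.07) and Amigo3 (0.04 ± 0.12). No member was past an unadjusted p of 0.05 in either direction. The summed level of the list was 4030, 4149 and 3636 CPM in STET and 3957, 3360 and 3568 CPM in STET_S200, with overlap. The libraries with Fabp4 above 1 CPM held the lowest sum of STET and the 2 lowest of STET_S200. Within the libraries at or below that level 23 of 33 genes were lower in STET_S200 1 than in STET 1 and 2 (median −0.047), and within those above it 28 of 33 (median −0.109). With a term for that split in the fit, the log2 fold changes of Arc, Fos, Egr1, Egr2 and Egr3 had the opposite sign, between 0.01 and 0.06.

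**Figure D4:**
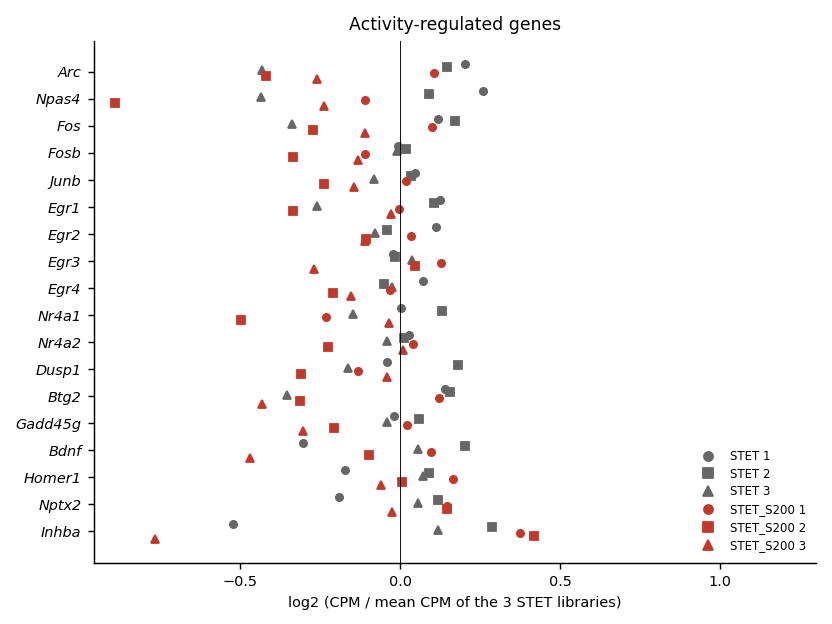
Each of 18 activity-regulated genes in the 6 libraries, as the log2 ratio of its CPM to the mean of the 3 STET libraries (grey STET, red STET_S200, symbol shape by replicate number). Grey and red points are mixed in every gene except Fosb, in which the 3 red points are lower.

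Delayed activity-regulated genes, which encode secreted factors and synaptic proteins, had members on both sides. Of 25 tested, 14 were positive and the median log2 fold change was 0.041. Nptx1 (ENSMUSG00000025582), a neuronal pentraxin that gathers AMPA receptors at synapses, was at 278, 301 and 285 CPM in STET and 347, 325 and 306 CPM in STET_S200. All 3 STET_S200 libraries were higher, with a log2 fold change of 0.18 ± 0.05 (unadjusted p = 0.00291, edgeR adjusted p = 0.938). Lingo1, a leucine-rich repeat membrane protein that limits axon growth, was also above STET in all 3 libraries (0.10 ± 0.04). Per1 and the cell cycle inhibitor gene Cdkn1a (−0.16 ± 0.06) were below it in all 3. Over all tested genes 6.22% were above STET in all 3 libraries and 5.76% below it. Lingo1 and Cdkn1a were named after their values were seen. Bdnf, the neurotrophin required for late potentiation, was at 55.5, 78.8 and 71.2 CPM against 73.2, 64.0 and 49.5 CPM (−0.13 ± 0.24). Homer1 (0.04 ± 0.08), Nptx2 (0.09 ± 0.14), Inhba (0.11 ± 0.41), Rasl11b (0.14 ± 0.06) and Ptgs2 (−0.31 ± 0.30) overlapped between the groups as well.

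Per1 (ENSMUSG00000020893), a repressor of the circadian clock that is also induced by cAMP signalling and glucocorticoids, was at 170, 170 and 172 CPM in STET and 143, 139 and 158 CPM in STET_S200. The 3 STET values were almost equal and every STET_S200 value was below them. The log2 fold change was −0.22 ± 0.06 (unadjusted p = 0.0034, edgeR adjusted p = 0.938). Against STET_S100, which averaged 164 ± 15.3 CPM, it was −0.17 ± 0.06, and Control averaged 172 ± 9.29 CPM. Ciart, another clock repressor, was at 19.0, 16.4 and 19.8 CPM against 13.8, 13.05 and 16.5 CPM, with overlap (−0.35 ± 0.13). Of the 18 tested circadian genes 12 were negative (median log2 fold change −0.049), and the positive regulators Clock (0.04 ± 0.04) and Arntl (0.03 ± 0.06) had the highest values. Among 18 corticosteroid receptor and response genes, which hold Per1 and Cdkn1a too, 10 were negative (median −0.068). The stress hormone receptor genes Crhr1 (0.12 ± 0.12) and Nr3c2 (0.08 ± 0.06) were at the top of that list and the lipid droplet gene Plin4 (−0.29 ± 0.36) and Hif3a (−0.25 ± 0.19) at the bottom.

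Genes of the excitatory synapse tended to small positive values. Long transcripts leaned the same way. Among genes with a mean log2 CPM above 2, 42.1% were negative at 2000 to 5000 nt and 40.9% over 5000 nt. In these classes 8.47% and 8.63% were above STET without overlap. The synaptic lists below are set beside all tested genes, not beside genes of like length. Of the 24 tested postsynaptic scaffold genes 16 were positive (median log2 fold change 0.041), and 8 were higher in all 3 STET_S200 libraries than in any STET library (33.3%, against 6.22% of all genes). Nlgn1, a postsynaptic adhesion protein that binds presynaptic neurexins, was at 109, 112 and 113 CPM in STET and 125, 121 and 117 CPM in STET_S200 (0.12 ± 0.04, unadjusted p = 0.0121). Lrrtm1, another neurexin ligand, had a log2 fold change of 0.12 ± 0.05, Nlgn2 one of 0.07 ± 0.04 and the PSD-93 gene Dlg2 one of 0.08 ± 0.04, each without overlap. Homer3 (0.13 ± 0.09) had the highest value of the list, and Lrrtm4 (−0.07 ± 0.07) and Dlg1 (−0.04 ± 0.05) the lowest. No scaffold gene was lower without overlap. Within the libraries at or below 1 CPM of Fabp4 the median was 0.040, and within those above it 0.036.

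AMPA receptor subunits and their auxiliary proteins, which carry fast excitatory transmission, had 13 of 17 positive values and a median log2 fold change of 0.050. Gria1, the subunit whose insertion into synapses accompanies potentiation, was at 936, 946 and 957 CPM in STET and 976, 1000 and 1008 CPM in STET_S200 (0.07 ± 0.04). Gria1, Gria4 (0.06 ± 0.04) and the cornichon gene Cnih2 (0.08 ± 0.05) were the 3 members without overlap (17.6%, against 6.22% of all tested genes), and were named after their values were seen. Cnih3 (0.11 ± 0.05) and Shisa6 (0.08 ± 0.08) had the highest values, and Cacng3 (−0.09 ± 0.07) and Shisa8 (−0.06 ± 0.22) the lowest. The direction of the list differed between the 2 sides of the Fabp4 limit. The lower side holds 1 STET_S200 library and the upper side 1 STET library, so single libraries and library content cannot be told apart. Within the libraries at or below 1 CPM of Fabp4 its median was −0.013 and within those above it 0.063.

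Vesicle release genes were the most uniform of the synaptic lists in sign, with 34 of 38 positive and a median log2 fold change of 0.045. Snap25, a core SNARE protein, was at 1609, 1595 and 1593 CPM in STET and 1616, 1669 and 1759 CPM in STET_S200 (0.07 ± 0.04). Syt1, the calcium sensor of fast release, was at 1639, 1576 and 1572 CPM against 1645, 1674 and 1771 CPM (0.09 ± 0.04). The STET_S200 values of both were above STET by little in STET_S200 1 and by more in STET_S200 3. These genes, Syn2 (0.09 ± 0.05) and the active zone gene Erc2 (0.11 ± 0.05) were the 4 members without overlap (10.5%, against 6.22% of all tested genes), and no member was past an unadjusted p of 0.05. Cplx3 (0.35 ± 0.45) and the synaptic vesicle glycoprotein gene Sv2b (0.12 ± 0.07) had the highest values and Unc13c (−0.27 ± 0.15) and Syt7 (−0.03 ± 0.06) the lowest. The median was 0.008 within the libraries at or below 1 CPM of Fabp4 and 0.088 within those above it.

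Kinases and phosphatases of synaptic tagging and late potentiation had 24 of 33 positive values and a median log2 fold change of 0.036. Camk4, the nuclear calcium/calmodulin kinase that activates CREB, was at 53.2, 48.7 and 49.1 CPM in STET and 55.6, 53.8 and 57.9 CPM in STET_S200. All 3 STET_S200 values were above STET, with a log2 fold change of 0.15 ± 0.05 (unadjusted p = 0.00606, edgeR adjusted p = 0.938). Members with every STET_S200 library above every STET library made up 12.1% of the list, against 6.22% of all tested genes, and the MSK1 gene Rps6ka5 (0.09 ± 0.06) and the calcineurin gene Ppp3cb (0.08 ± 0.04) were among them. Prkce (0.09 ± 0.04) and Camk4 were the 2 at an unadjusted p under 0.05. Prkca (0.12 ± 0.11) was high in STET 2 as well, and Map2k2 (−0.05 ± 0.05) and Mapk3 (−0.04 ± 0.07) were lowest.

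Receptors for the modulators that reach ventral CA1 during arousal were measured too. Of 28 tested adrenergic, dopamine, muscarinic and serotonin receptor genes 19 were positive (median log2 fold change 0.052). Chrm4, a Gi-coupled muscarinic receptor, was at 17.5, 15.6 and 15.4 CPM in STET and 18.4, 19.4 and 17.5 CPM in STET_S200 (0.19 ± 0.07, unadjusted p = 0.0102). The alpha-2C adrenergic receptor gene Adra2c had a log2 fold change of 0.22 ± 0.07 (unadjusted p = 0.00777) with overlap, and the alpha-1D gene Adra1d 0.19 ± 0.09 without it. The members higher without overlap were Adra1d, Chrm4, Htr1a (0.04 ± 0.06) and Htr5b (0.12 ± 0.17), against 6.22% of all tested genes. Htr1a and Htr5b were named after their values were seen. Htr2a (0.22 ± 0.13) and Chrm5 (0.22 ± 0.11) were the highest and Htr1b (−0.16 ± 0.13) and Drd2 (−0.12 ± 0.22) the lowest members above the expression limit for named genes. Of 20 neuropeptide receptor genes 13 were positive (median 0.055). Sstr3 was the 1 member of these 20 without overlap, against 6.22% of all tested genes higher without overlap. The bombesin-family receptor genes Nmbr (0.38 ± 0.18) and Grpr (0.33 ± 0.23) were the highest, and Crhr2 (−0.25 ± 0.23) and Ntsr2 (−0.09 ± 0.05) the lowest.

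Histone deacetylases, which close chromatin and restrain memory-related transcription, had 7 of 11 positive values and a median log2 fold change of 0.006, close to that of all genes. Hdac7, a class IIa member, was at 18.7, 17.2 and 18.7 CPM in STET and 14.3, 17.5 and 16.3 CPM in STET_S200 (−0.18 ± 0.08, unadjusted p = 0.0379), with overlap. Hdac4 (0.09 ± 0.04) and Hdac9 (0.05 ± 0.10) were the highest and Hdac8 (−0.09 ± 0.07) was next lowest after Hdac7. Proteasome subunit genes, whose products degrade tagged proteins and which late potentiation requires, had 25 of 34 positive values with a median of 0.018. Psma1 was at 60.6, 59.4 and 59.8 CPM against 61.7, 64.0 and 67.3 CPM (0.10 ± 0.04), and Psmd1 (0.10 ± 0.04) and Psmd2 (0.06 ± 0.03) were also above STET in all 3 libraries. These 3 of the 34 were the only members higher without overlap, against 6.22% of all tested genes. The immunoproteasome genes Psmb8 (−0.31 ± 0.21) and Psmb10 (−0.09 ± 0.06) were the lowest named members.

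**Figure D5:**
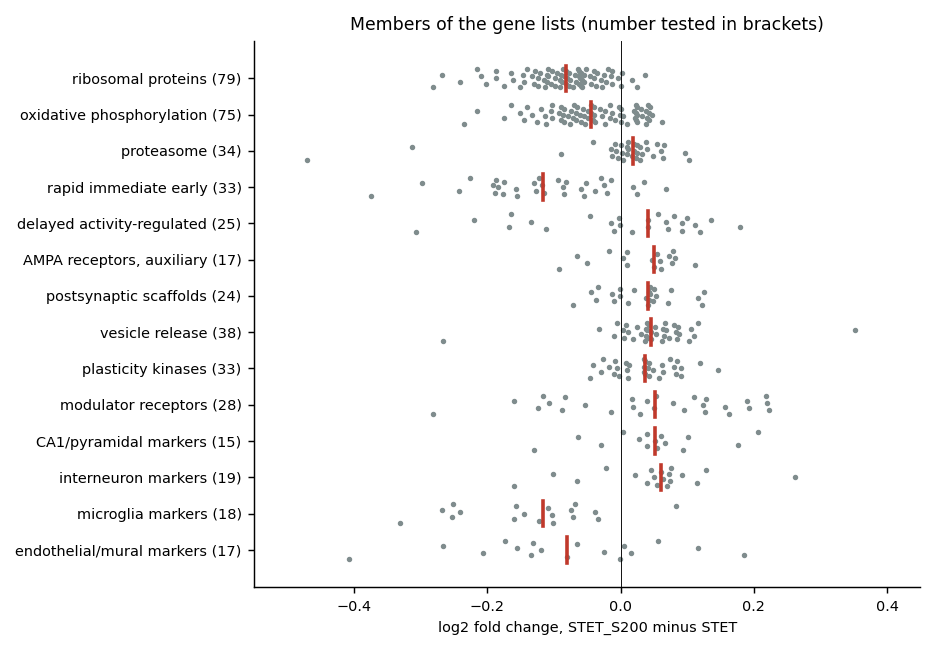
Log2 fold change of STET_S200 minus STET for each tested member (grey points) of 14 gene lists, with the list's median as a red bar. The ribosomal, immediate early and microglial lists lie mostly left of 0 and the synaptic lists mostly right of it, and no single member passed the threshold in the filtered edgeR fit, from which the points come.

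Markers of cell types show which cells the dissected pieces held, and in bulk tissue fewer cells of a type and less RNA per cell cannot be told apart. Of 15 tested CA1 and pyramidal markers 12 were positive (median log2 fold change 0.051). Neurod2, Slc17a7 (0.10 ± 0.04) and the transcription factor gene Bcl11b (0.07 ± 0.05) were without overlap, against 6.22% of all tested genes higher without overlap. Neurod2 had also been picked by its p from these same libraries. Fibcd1 (0.18 ± 0.12) came next after Neurod2, and Wfs1 (−0.13 ± 0.10) and Emx1 (−0.06 ± 0.10) were lowest. Of 19 interneuron markers 15 were positive (median 0.061). The vesicular GABA transporter gene Slc32a1 (0.07 ± 0.05) and the neuropeptide gene Cck (0.09 ± 0.05) were above STET in all 3 libraries, against the same 6.22% of all tested genes. Calb2 (0.26 ± 0.34) and Htr3a (0.13 ± 0.11) were highest and Ndnf (−0.16 ± 0.14) and Dlx5 (−0.10 ± 0.13) lowest.

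Markers of glia and vessels lay on the other side. Of 18 microglia markers 17 were negative (median log2 fold change −0.116), and 5 were lower without overlap (27.8%, against 5.76% of all genes). Tyrobp, a signalling adaptor of microglial receptors, was at 10.7, 11.6 and 11.7 CPM in STET and 9.96, 9.01 and 9.81 CPM in STET_S200 (−0.24 ± 0.07, unadjusted p = 0.00493). Trem2 (−0.25 ± 0.11), which encodes a receptor that signals through Tyrobp, Aif1 (−0.33 ± 0.14), Tmem119 (−0.27 ± 0.20) and the complement gene C1qa (−0.16 ± 0.07) were the other 4. Sall1 (0.08 ± 0.09) was the only positive member, and Fcrls was at −0.03 ± 0.08. The summed level of the list overlapped, at 405 to 441 CPM in STET and 364 to 426 CPM in STET_S200. Within the libraries at or below 1 CPM of Fabp4 only 6 of the 18 markers were lower in STET_S200 (median 0.067), and within those above it 17 (median −0.278).

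All 16 astrocyte markers had negative log2 fold changes, from −0.203 to −0.008, with a median of −0.045 and no member without overlap. Their direction differed between the 2 sides of the Fabp4 limit, with 1 STET_S200 library on the lower side and 1 STET library on the upper. Within the libraries at or below 1 CPM of Fabp4 only 3 of the 16 were lower in STET_S200 (median 0.106), and within those above it all 16 (median −0.174). Of 16 oligodendrocyte markers 13 were negative (median −0.042). Here 14 were lower at or below 1 CPM of Fabp4 (median −0.103) and 7 above it (median 0.031). Of 17 endothelial and mural markers 12 were negative (median −0.081). Vtn, a matrix protein of pericytes, was at 35.5, 33.7 and 40.8 CPM in STET and 29.7, 32.6 and 29.1 CPM in STET_S200 (−0.27 ± 0.09, unadjusted p = 0.00792). The VEGF receptor gene Flt1 (−0.17 ± 0.08) and the glucose transporter gene Slc2a1 (−0.12 ± 0.05) were also lower without overlap, against 5.76% of all tested genes. Slco1a4 (−0.41 ± 0.22) had the lowest value and Acta2 (0.18 ± 0.46) and Kdr (0.12 ± 0.10) the highest. Within the libraries on either side of 1 CPM of Fabp4 the median of the vascular list was negative, at −0.164 and −0.100. Of the choroid plexus and ependymal markers, Ttr (−5.99 ± 2.08) and Clic6 (−5.83 ± 2.12) were lowest, while the ependymal genes Ccdc153 (0.42 ± 0.65) and Tmem212 (−0.03 ± 0.72) overlapped. The part of these tissue differences in the differences of other genes was not tested, beyond the fits with a choroid score or a Fabp4 term.

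Cux2 (ENSMUSG00000042589), a transcription factor of upper cortical layers, was the 1 member of 17 markers of neighbouring cortex without overlap and is named after its values were seen. That count for the list is near the 5.76% of all tested genes that were lower without overlap. Cux2 is given for its own values. Cux2 was at 22.5, 23.3 and 21.9 CPM in STET and 20.03, 18.4 and 20.1 CPM in STET_S200, a log2 fold change of −0.21 ± 0.06 (unadjusted p = 0.0037, edgeR adjusted p = 0.938). Control averaged 23.4 ± 0.97 CPM and STET_S100 23.5 ± 1.3 CPM, so STET_S200 was the low group of the 4. Its log2 fold change against STET_S100 was −0.27 ± 0.06 (unadjusted p = 0.000451, edgeR adjusted p = 0.956).

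Between the 2 amygdala groups no gene changed past the threshold either, with a smallest edgeR adjusted p of 0.956 and 0% called. At an unadjusted p under 0.05 there were 385 higher genes (1.98%) and 629 lower genes (3.23%) in STET_S200 against STET_S100, and DESeq2 called 5. Rps29 averaged 189 ± 3.31 CPM in STET_S200 and 178 ± 9.13 CPM in STET_S100, and Rpl38 113 ± 4.72 and 112 ± 5.57 CPM, each with overlapping libraries. Vtn (−0.27 ± 0.09, unadjusted p = 0.00777) was lower than in STET_S100 by as much as it was lower than in STET.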

How the data were processed

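Directional poly(A) RNA libraries of mouse ventral CA1 were read as 150 bp paired ends. The deposited values are raw read counts per Ensembl gene ID in 1 table of the whole series. The submitters' processing notes name STAR 2.7.1a and HTSeq 0.11.2 (with Trimmomatic 0.39, limma and R 4.0.2). Genome build, annotation and strand setting: not given in the sources used here. Of 55471 IDs, 55144 (99.4%) were paired with a symbol.

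Counts were scaled by TMM and tested with edgeR 4.0.16 (R 4.3.3): a robust quasi-likelihood F test, all 12 libraries in 1 fit, filterByExpr (minimum count 10, total 15), Benjamini-Hochberg over 19492 genes. Fold changes are log2 with SE. The test was tried on simulated data. Lengths are those of 1 GENCODE M21 transcript per gene. Named are the 10 genes per direction with the lowest p (mean log2 CPM 0 or more, predicted genes only among the first 3), fixed activity-regulated and tissue genes, and the 2 highest and 2 lowest members of the lists described. Members and lists were chosen with earlier results of these data known. Lists got no set test. Other settings were scalings, filters, DESeq2 1.42.0, limma-voom 3.58.1, subsets, covariates and each library left out. Libraries are pools of slices from mice shared between groups, so p-values measure only the spread between pools. Counts are reads, not independent molecules. Values of some list members are not reported here.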

Additional observations from a re-analysis of the deposited data

How the results depend on the processing

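At 36.8 to 50.3 M counts a library, precision was limited by the spread between 3 pools a group more than by depth. Of 157 named genes under 20 other settings, 3070 of 3138 values kept their sign, and 799 of 840 list medians moved by less than their SD between libraries. For the results named here the cause of a change was not tested, except that the other filter changes which genes are tested.

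STET_S200 against STET gave 0 changed genes in the reported fit, 16 with DESeq2, 34 with no filter and 1 (Alb) with the Fabp4 term, and 0 under every other setting run, each left-out library included (0 to 0). DESeq2's calls were led by Neurod2 (higher), Uchl1, Rps27, S100a1, Rps29, Rpl38, Ttr and Clic6 (lower). Against STET_S100, 0 became 98 with no filter and 5 with DESeq2. Ribosomal protein genes with negative values, 75 of 79, became 46 in the libraries with Fabp4 at most 1 CPM alone and 66 to 76 with a library left out. Those lower at an unadjusted p under 0.05, 28, became 9 in those libraries, 17 with the length trend removed (a setting chosen after seeing the data) and 16 to 50 with a library left out: 50 without STET_S200 1, 18 without STET_S200 2 and 16 without STET_S200 3. Oxidative phosphorylation genes, 52 negative, kept 47 to 59 with a library left out, and the 15 at that p became 2 with the choroid covariate, 2 with the length trend removed and 7 to 16 with a library left out (7 without STET 2, 8 without STET_S200 1 or 2). Rapid immediate early genes, 29 negative, were 24 to 31 with a library left out, and the 0 at that p became 4 with no filter, 1 with DESeq2, 4 in a fit of the 2 groups alone and 0 to 2 with a library left out.

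Some log2 fold changes took the opposite sign. With the Fabp4 term these were 0.032 for Arc, 0.057 for Fos, 0.007 for Egr1, 0.049 for Egr2, 0.045 for Egr3, −0.411 for Fabp4, −0.124 for Acta2 and 0.057 for Tmem212. In the libraries with Fabp4 at most 1 CPM alone they were 0.142 for Egr3, 0.016 for Nr4a2, 0.122 for Bdnf, −1.164 for Fabp4, 0.046 for Ptgs2, −0.023 for Shisa6, 0.15 for Shisa8, 0.024 for Lrrtm4, 0.016 for Map2k2, 0.051 for Mapk3, −0.009 for Arntl, 0.012 for Emx1, 0.121 for Ndnf, 0.102 for Dlx5, 0.113 for Fcrls and −0.171 for Acta2. With the choroid covariate they were 0.057 for Arc, 0.044 for Btg2, −0.035 for Inhba, −0.022 for Amigo3, 0.006 for Atf3, 0.067 for Shisa8, 0.091 for Crhr2, 0.19 for Plin4, 0.026 for Hif3a, 0.065 for Fcrls, 0.735 for Tmem212, −0.012 for Gria4, −0.008 for Syn2 and −0.015 for Rps6ka5. Tmem212 was at 0.388 with limma-voom and 0.024 with the length trend removed. With each library left out in turn, signs changed in Fos (−0.229 to 0.007), Egr3 (−0.101 to 0.089), Nr4a2 (−0.106 to 0.025), Bdnf (−0.267 to 0.004), Homer1 (−0.038 to 0.088), Inhba (−0.094 to 0.401), Amigo3 (−0.015 to 0.103), Shisa8 (−0.208 to 0.103), Cplx3 (−0.058 to 0.724), Syt7 (−0.067 to 0.009), Mapk3 (−0.089 to 0.033), Drd2 (−0.215 to 0.066), Plin4 (−0.515 to 0.007), Hdac9 (−0.013 to 0.13), Calb2 (−0.009 to 0.494), Fcrls (−0.094 to 0.02), Acta2 (−0.036 to 0.473) and Tmem212 (−0.441 to 1.101).

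The labels do not tie replicate numbers to mice. Deviations from the group mean correlated at −0.157, −0.203 and −0.233 between libraries of the same number and at 0.022 to 0.265 between others. No library correlated best with its own number. Such deviations sum to 0 within each group, so these correlations cannot decide whether libraries of equal number hold the same mice. With the replicate block 0 genes changed, 75 ribosomal protein genes were negative, and Tmem212 was at 0.015.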

Other observations

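Voltage-gated calcium and sodium channel genes, which shape spikes and calcium entry, had 21 of 23 positive log2 fold changes in STET_S200 against STET (median 0.037), and 0 had every STET_S200 library above every STET library, against 6.22% of all tested genes. The direction differed between the 2 sides of the Fabp4 limit, with 1 STET_S200 library on the lower side and 1 STET library on the upper. Within the libraries at or below 1 CPM of Fabp4, 16 of the 23 were lower in STET_S200 (median −0.014). Within those above it 22 were higher (median 0.098). Of 37 potassium channel genes 25 were positive (median 0.026). Of 13 GABA-A receptor subunit genes 9 were positive (median 0.031), and a pair of subunits found in extrasynaptic receptors lay on opposite sides. Gabra5 was at 163, 164 and 171 CPM in STET and 180, 183 and 180 CPM in STET_S200 (0.12 ± 0.05 SE). Gabrd was at 10.3 ± 0.311 CPM (SD, n = 3) in STET and at 9.98, 8.32 and 8.52 CPM in STET_S200 (−0.20 ± 0.10 SE). The groups of both genes were without overlap, and neither gene passed the threshold (edgeR adjusted p = 0.938 for both).

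The mu opioid receptor gene Oprm1 was at 2.36, 2.27 and 2.15 CPM in STET and 3.23, 2.60 and 2.84 CPM in STET_S200 (0.35 ± 0.16 SE, edgeR unadjusted p = 0.0364, adjusted p = 0.938), with 3.38 CPM on average in Control. The metabotropic glutamate receptor gene Grm5 had a log2 fold change of 0.10 ± 0.04 SE without overlap (edgeR adjusted p = 0.938). The 3 metallothionein genes were all negative (median −0.137), each with overlap between the groups. Of 11 meningeal and fibroblast markers 10 were negative (median −0.206), and 3 had every STET_S200 library below every STET library (27.3%, against 5.76% of all tested genes): Igf2, Slc13a4 and Ptgds. Choroid plexus also expresses these genes, and Ttr was at 254, 2242 and 433 CPM in the same STET libraries; the part of choroid plexus RNA in their values was not tested. Of 9 dentate granule cell markers 5 were negative (median −0.067). None of these genes passed the threshold in the reported edgeR fit, and the genes named in these paragraphs were chosen after their values were seen.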
